A study of Homo sapiens with 9 samples.

Results

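The haem synthesis enzymes were examined in K562 cells through the 8 genes ALAS1, ALAS2, ALAD, UROS, UROD, CPOX, PPOX and FECH, which were taken by name from a count table of 58347 genes. All 8 were among the 23675 genes that passed the filter on low counts. K562 is a human erythroleukaemia line that makes haemoglobin. The cells, named K562-FIRE, stably carried 3 constructs under EF1a promoters, namely dCas9, a Cas9 that finds its guide's target but does not cut, MS2-Fkbp, and SS18-Frb. SS18 is a subunit of BAF, a complex that remodels chromatin. Because rapamycin bridges Fkbp and Frb, it can bring SS18 to the guide's target, and it also inhibits the kinase complex mTORC1 in cells generally. RNA was sequenced after 24 h in 10 nM rapamycin or DMSO, from cells with an sgRNA to the promoter of the fetal globin gene HBG1 (rapamycin n = 3, DMSO n = 3) or with a non-targeting sgRNA (rapamycin n = 2, DMSO n = 1). All 4 groups carried the 3 constructs, and no label says whether the line was 1 clone or whether replicates were separate cultures. The p-values therefore judge differences against the spread between these libraries, which may be technical.

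Haem is built in steps that begin and end in the mitochondrion. ALAS1 and ALAS2 encode isoenzymes of 5-aminolevulinate synthase, which joins glycine and succinyl-CoA in the first and rate-limiting step. ALAS1 serves all tissues and is repressed by haem, whereas ALAS2, on the X chromosome, serves developing red cells. ALAD, UROS, UROD and CPOX act in the middle of the pathway, PPOX makes protoporphyrin, and FECH inserts iron into it. A further enzyme of the middle steps was not analysed here.

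Libraries held from 19797409 to 31619671 counts, of which the 8 genes together took between 0.0741% and 0.111% after scaling. The lowest count of any of the 8 genes in any library was 311, for ALAD. Within groups, the log2 SD between libraries was from 0.881 to 13.4 times the SD that counting error alone would give, and under 2 times it in 4 of 24 gene and group combinations (of ALAS1, ALAD and CPOX). The K562 marker genes GATA1, TAL1, KLF1, TFRC, HBE1 and HBZ exceeded 1 CPM in every library. CPM is counts per 1000000 counts of the library, scaled between libraries by the TMM method. Among markers of other cell types, KRT5 had 0 counts in every library. CD3E, MS4A1, CD14 and FCGR3A had maxima of 0.361, 0.0648, 1.22 and 0.413 CPM. EPCAM (36.9 to 50 CPM), COL1A2 (3.01 to 24.8), CD3D (4.1 to 6.04) and COL1A1 (1.3 to 2.2) were detected in all libraries. In bulk RNA, fewer cells of a type and less RNA per cell cannot be told apart.

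None of the 8 genes lies on chromosome 11, which carries HBG1. By GENCODE 29 (GRCh38), ALAS1 (ENSG00000023330) spans chromosome 3 from 52198086 to 52214327 and CPOX (ENSG00000080819) spans chromosome 3 from 98579446 to 98593723. UROD (ENSG00000126088) and PPOX (ENSG00000143224) lie on chromosome 1, from 45012147 to 45015575 and from 161166410 to 161178013. ALAS2 (ENSG00000158578) spans chromosome X from 55009055 to 55031064. The remaining genes are ALAD (ENSG00000148218; chromosome 9, 113386317 to 113401333), UROS (ENSG00000188690; chromosome 10, 125784980 to 125823285) and FECH (ENSG00000066926; chromosome 18, 57548283 to 57586772). Values are per gene, over its annotated exons. PPOX shares 24.3% of its exon bases with B4GALT3 on the opposite strand, and no source used here states whether counting used strand.

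Promoter sequence is shown for ALAS1 and ALAS2, whose isoenzymes catalyse the same step and whose transcript levels differed in opposite directions between treatments, and for PPOX, which rose about as much as ALAS2. Each run is the 250 bases before a RefSeq start (GRCh38.p14), printed 5′ to 3′ on the gene's strand. The windows are chr3:52197833-52198082 (plus strand) for ALAS1, chrX:55030978-55031227 (minus strand) for ALAS2 and chr1:161166396-161166645 (plus strand, the downstream of 2 RefSeq starts) for PPOX. Capitals mark matches, on either strand, to GATA motifs (AGATAA or AGATAG, and TGATAA or TGATAG), the CACCC motif of KLF factors (CCNCACCC), the NF-E2 motif (TGANTCA), the E-box (CACGTG) and the TATA box (TATAAA).
ALAS1: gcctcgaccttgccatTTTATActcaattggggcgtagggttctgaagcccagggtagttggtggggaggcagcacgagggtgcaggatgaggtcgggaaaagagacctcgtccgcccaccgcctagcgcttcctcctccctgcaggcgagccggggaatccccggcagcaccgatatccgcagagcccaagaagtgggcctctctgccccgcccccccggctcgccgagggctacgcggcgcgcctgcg
ALAS2: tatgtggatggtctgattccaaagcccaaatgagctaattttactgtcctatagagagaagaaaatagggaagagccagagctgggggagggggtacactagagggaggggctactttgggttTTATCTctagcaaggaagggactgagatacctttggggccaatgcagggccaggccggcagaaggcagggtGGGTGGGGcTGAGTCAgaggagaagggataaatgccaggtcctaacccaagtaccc
PPOX: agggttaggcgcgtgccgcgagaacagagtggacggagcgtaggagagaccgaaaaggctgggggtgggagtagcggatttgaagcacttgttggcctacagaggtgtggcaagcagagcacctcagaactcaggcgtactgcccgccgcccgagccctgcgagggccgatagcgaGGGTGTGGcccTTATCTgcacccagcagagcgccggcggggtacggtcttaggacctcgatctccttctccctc

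The ALAS2 window holds TTATCT, which is AGATAA read on the other strand and so matches the motif of GATA factors, starting 127 bases before the start site. It also holds a CACCC match, GGGTGGGG, at 56 bases and the NF-E2 match TGAGTCA at 47 bases. The downstream PPOX window holds the same TTATCT at 63 bases and a CACCC match, GGGTGTGG, at 74 bases, and the window of the upstream PPOX start holds no match. Nearly all of the downstream PPOX window, with its matches, lies inside the GENCODE span of PPOX given above. The ALAS2 window reaches into the GENCODE span of ALAS2, with its CACCC and NF-E2 matches inside that span and its GATA match outside. Of the motifs searched, the ALAS1 window holds only TTTATA at 234 bases, a TATA box read on the other strand. In these windows no match overlapped a match to another motif. Among 35116 RefSeq promoter windows of this length, 22.3% hold a GATA match, 16.7% a CACCC match, 6.57% an NF-E2 match, 6.34% an E-box, 10.7% a TATA match and 2.27% both a GATA and a CACCC match. Of the 8 genes, 7 had a promoter entry, and besides ALAS2 and PPOX the windows of ALAD (1 match, in 1 of its 2 entries) and CPOX (2 matches) held GATA letters. A match describes letters only.

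**Figure D1:**
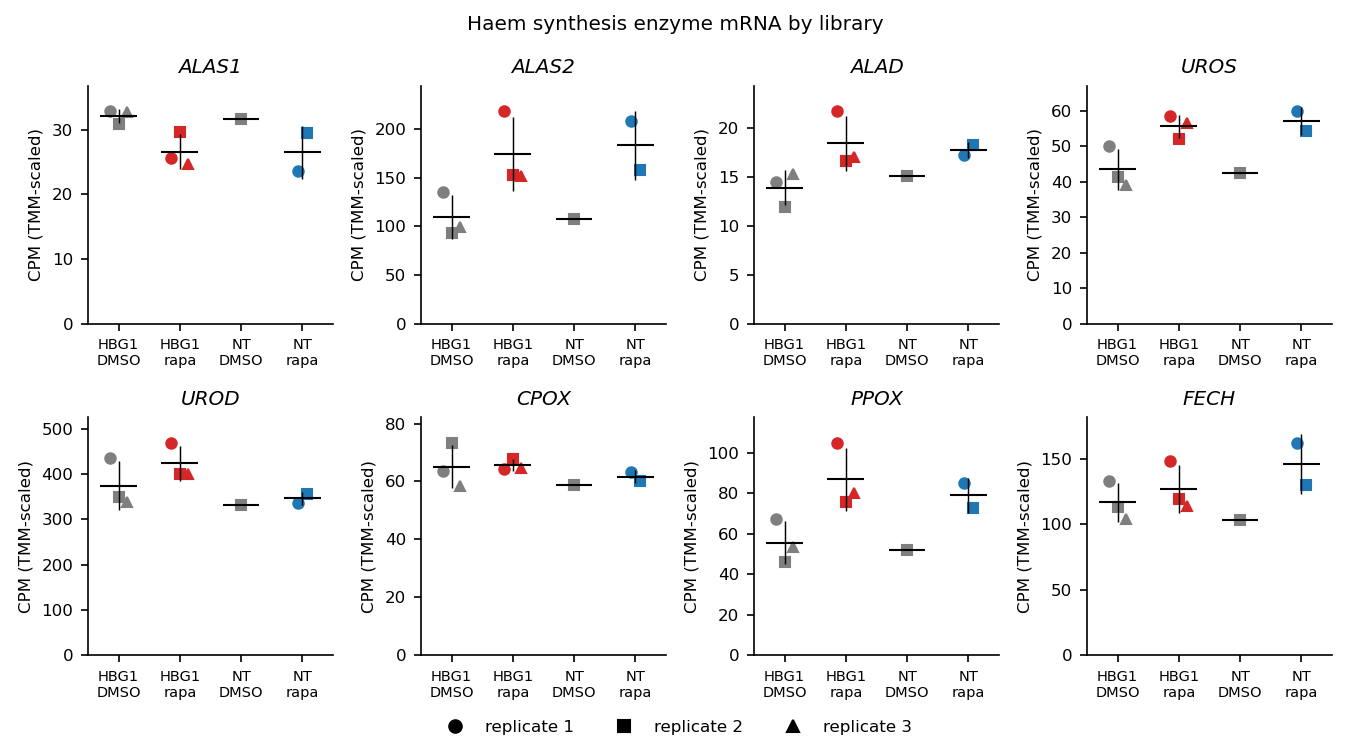
TMM-scaled CPM (linear axes from 0) of each enzyme gene in each of the 9 libraries, by group (HBG1: HBG1 sgRNA; NT: non-targeting sgRNA; rapa: rapamycin). Symbols give the replicate number, horizontal lines the group mean and vertical lines ± SD; the NT DMSO group is 1 library. ALAS2, ALAD, UROS and PPOX were higher in every rapamycin library than in every DMSO library, and ALAS1 was lower. The share of all genes so separated over both guides was not computed.

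Levels were compared between genes per kilobase of the longest principal GENCODE transcript. UROD stood highest, at 292 ± 37.8 CPM per kb (SD over 9 libraries), followed by ALAS2 at 72.6 ± 22. PPOX (40.8 ± 10.6), UROS (36.9 ± 5.67), FECH (32.4 ± 5.2) and CPOX (22.6 ± 1.67) came next, and ALAS1 (11.9 ± 1.45) and ALAD (5.17 ± 0.856) were lowest. Each gene exceeded the next in all 9 libraries except PPOX, which exceeded UROS in 7 of 9, so these neighbours were not separated. The order depends on the length used: per kilobase of all annotated exons, UROS moved from rank 4 to rank 7, at 5.3 CPM per kb, because its annotated exons cover 9.53 kb against 1.37 kb in that transcript. UROD and ALAS2 kept ranks 1 and 2 with either length. Across the 9 libraries CPOX varied least, with a coefficient of variation of 7.38%, and ALAS2 (30.3%) and PPOX (26.1%) varied most.

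The first comparison asked how the enzymes respond to rapamycin in cells with the HBG1 sgRNA. ALAS2, PPOX and UROS rose, by 1.6-fold, 1.56-fold and 1.28-fold, and no enzyme passed the test as lower. A gene was counted as changed when edgeR's quasi-likelihood test gave an adjusted p under 0.05 over all genes tested. By that rule 3 of the 8 enzymes were higher, where 2.75% of all genes tested were higher, and 0 were lower, where 4.05% were lower (6.8% changed in all). At an unadjusted p under 0.05 there were 5 of the 8, of which ALAS1 was lower, where 20.8% of all genes tested passed in either direction. The median log2 fold change of the 8 enzymes was 0.27, against 0.02 over all genes tested.

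ALAS2, the erythroid isoenzyme, stood at 135, 93.4 and 99.3 CPM under DMSO in replicates 1, 2 and 3 and at 218, 153 and 152 CPM under rapamycin. Every rapamycin library was above every DMSO library, and replicate 1 was the highest of each group. The group means were 109 ± 22.3 for DMSO and 174 ± 37.7 CPM for rapamycin (SD, n = 3 each). That is 0.67 on the log2 scale (SE 0.15, adjusted p 0.0127, edgeR), above that of 88.6% of genes tested. By pairs of libraries with the same replicate number, ALAS2 rose by 0.69, 0.71 and 0.61 on the log2 scale. With replicate number as a block the adjusted p was 4.46e-07 (edgeR). Without the block, the call was lost when DMSO replicate 2 or 3 with the HBG1 sgRNA was left out (0.57 and 0.61, adjusted p 0.0761 and 0.0686).

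ALAS1, the housekeeping isoenzyme, ran the other way without passing the test. It stood at 32.8, 30.8 and 32.7 CPM under DMSO and 25.6, 29.6 and 24.6 CPM under rapamycin in replicates 1, 2 and 3. All 3 rapamycin libraries were below all 3 DMSO libraries, with a nearly level replicate 2 pair (a log2 difference of -0.06, against -0.35 and -0.4 in pairs 1 and 3). The estimate was -0.27 on the log2 scale (SE 0.11, 95% interval -0.5 to -0.04, adjusted p 0.16, edgeR), and with the replicate block the adjusted p was 0.0579. In an additive model that takes the rapamycin change as shared by both guides, ALAS1 passed as lower (-0.27, adjusted p 0.0489, edgeR).

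The ratio of the isoenzymes differed more between treatments than either gene did, which follows from their opposite directions. Per kilobase, ALAS2 exceeded ALAS1 by 4.92, 3.64 and 3.64 times under DMSO and by 10.2, 6.21 and 7.41 times under rapamycin, with no overlap. The difference between the genes in log2(CPM + 0.5) was 1.73 ± 0.25 under DMSO and 2.67 ± 0.36 under rapamycin (SD, n = 3 each), a shift of 0.94. Every rapamycin library was higher for ALAS2 and lower for ALAS1, so this difference had to separate the groups. The two-sided exact permutation p of 0.1, the smallest that 3 libraries against 3 allow, was thereby fixed and adds no support. With the non-targeting sgRNA the ratio per kilobase was 4.04 in the DMSO library and 10.6 and 6.45 in the rapamycin libraries.

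**Figure D2:**
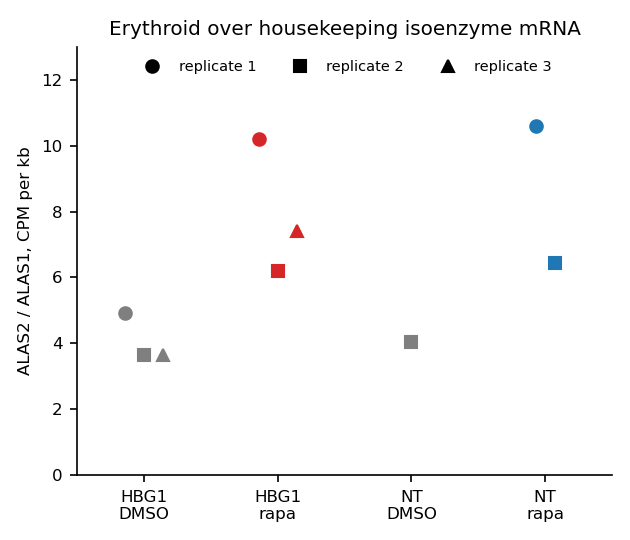
Ratio of ALAS2 to ALAS1 (CPM per kb of transcript, linear axis from 0) in each of the 9 libraries, by guide and treatment, with symbols for replicate number. The 4 DMSO libraries lie between 3.64 and 4.92 and the 5 rapamycin libraries between 6.21 and 10.6.

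In the middle of the pathway, UROS, which closes the tetrapyrrole ring, rose. The 3 DMSO libraries held UROS at 50.1, 41.4 and 39.2 CPM and the 3 rapamycin libraries at 58.6, 52.2 and 56.5 CPM, again with no overlap. Its log2 fold change was 0.35 (SE 0.1, adjusted p 0.0411, edgeR), and it rose in 3 of 3 pairs, by 0.22, 0.33 and 0.52. The replicate block gave an adjusted p of 0.00252. This was the least secure of the 3 calls without the block, since it was lost under 7 of 19 alternatives, each of which left out 1 library (adjusted p up to 0.179, without HBG1 sgRNA DMSO replicate 3).

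ALAD, which condenses 2 molecules of aminolevulinate, had 14.5, 11.9 and 15.3 CPM with DMSO and 21.7, 16.6 and 17 CPM with rapamycin. The groups did not overlap, but the test was not passed (log2 fold change 0.41, SE 0.14, 95% interval 0.11 to 0.7, adjusted p 0.0924, edgeR). UROD, the decarboxylase that makes coproporphyrinogen, overlapped between groups, at 436, 350 and 338 CPM under DMSO and 469, 401 and 401 under rapamycin (0.18, SE 0.09, adjusted p 0.307). Both were higher under rapamycin in 3 of 3 pairs, and with the replicate block both passed as higher (ALAD 0.41, adjusted p 0.0225; UROD 0.19, adjusted p 0.0253, edgeR). The block thus raised the count from 3 to 5 of the 8 enzymes higher, where 7.43% of genes tested in that fit were higher and 9.63% lower.

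CPOX, which makes protoporphyrinogen, was the enzyme with the smallest difference. Its DMSO libraries had 63.7, 73.3 and 58.4 CPM and its rapamycin libraries 64.2, 67.9 and 64.8, so the latter lay inside the DMSO range. The log2 fold change was 0.01 (SE 0.09, 95% interval -0.18 to 0.2, adjusted p 0.97, edgeR), and the pairs differed in sign.

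Of the last steps, PPOX rose about as much as ALAS2. With DMSO it stood at 67.4, 46.1 and 53.6 CPM and with rapamycin at 105, 76 and 80 CPM, with no overlap and replicate 1 highest in both groups. The rise was 0.64 on the log2 scale (SE 0.13, adjusted p 0.00941, edgeR), with pair values of 0.63, 0.72 and 0.57 and an adjusted p of 3.11e-06 with the replicate block. The call was lost without HBG1 sgRNA DMSO replicate 2 (0.52, adjusted p 0.0594). B4GALT3, the gene that overlaps PPOX, had 51.5 ± 5.19 CPM with DMSO and 52 ± 1.1 with rapamycin (SD, n = 3 per group), a log2 fold change of 0.02 (adjusted p 0.943, edgeR).

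FECH, which completes haem, was at 133, 113 and 104 CPM under DMSO and 148, 119 and 114 under rapamycin. The groups overlapped, and the log2 fold change was 0.12 (SE 0.11, 95% interval -0.12 to 0.36, adjusted p 0.616, edgeR). Without HBG1 sgRNA rapamycin replicate 1 it was -0.01. Across all 8 enzymes, 4 (ALAS2, ALAD, UROS and PPOX) lay higher in every rapamycin library than in any DMSO library, and ALAS1 lay lower. Over all genes tested 12.2% were higher and 13.1% lower by that measure.

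**Figure D3:**
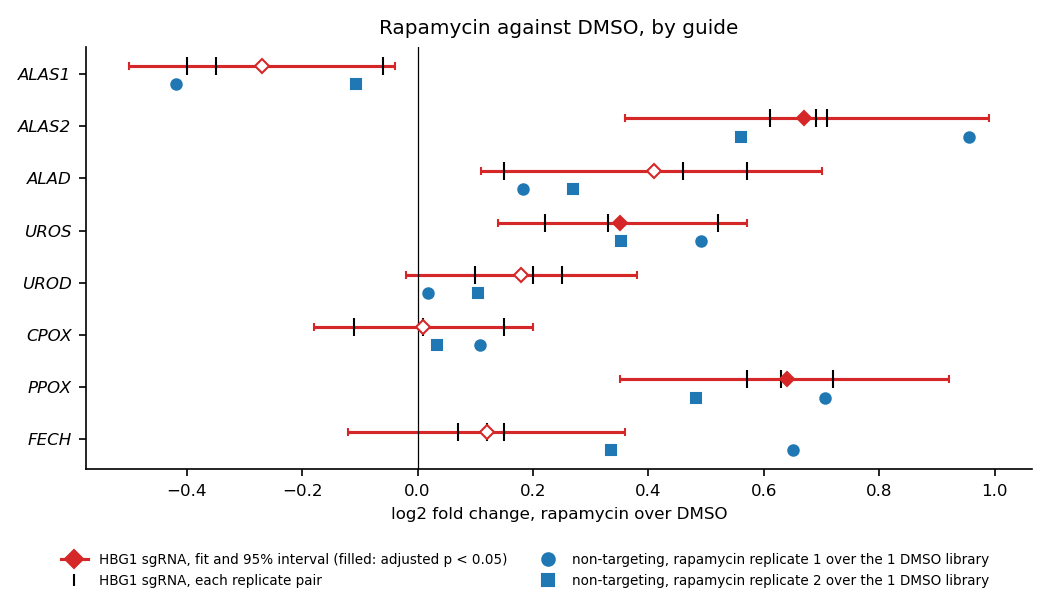
Log2 fold change of rapamycin over DMSO for each enzyme gene. Red diamonds are edgeR estimates with the HBG1 sgRNA and their 95% intervals, filled where the adjusted p was under 0.05 (ALAS2, UROS and PPOX); black ticks are the 3 replicate pairs. Blue symbols are the 2 non-targeting rapamycin libraries, each over the same single DMSO library, so the 2 points of a gene are not independent. They lie on the same side of 0 as the HBG1 sgRNA estimate for all 8 genes, and the share of all genes was not computed. For CPOX that estimate was 0.01 (SE 0.09), so its sign has little meaning.

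The non-targeting guide gives the same treatments without the HBG1 sgRNA. With the non-targeting sgRNA the fold changes rest on 1 DMSO library and were not tested. ALAS2 was at 107 CPM in that library and at 208 and 158 CPM in rapamycin replicates 1 and 2, a log2 fold change of 0.78. PPOX was at 52.1 CPM against 85.3 and 73 (0.6), and UROS at 42.5 against 59.9 and 54.4 (0.43). For these 3 genes both non-targeting rapamycin libraries stood above the 1 DMSO library, and the same held for ALAD, UROD, CPOX and FECH, so it does not set the 3 apart. The share of all genes that did so was not computed. ALAS1 was at 31.7 CPM under DMSO and 23.6 and 29.4 under rapamycin (-0.26), a value that ran from -0.43 to -0.11 when either rapamycin library was left out. ALAD (15.1 against 17.2 and 18.3 CPM), UROD (332 against 336 and 357) and CPOX (58.7 against 63.3 and 60.1) had log2 fold changes of 0.22, 0.06 and 0.07.

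FECH was the gene in which the guides were furthest apart. With the non-targeting sgRNA it stood at 103 CPM under DMSO and 162 and 130 under rapamycin, a log2 fold change of 0.5 against 0.12 with the HBG1 sgRNA. The interaction, which is the rapamycin change with the HBG1 sgRNA minus that with the non-targeting sgRNA, was -0.38 (SE 0.21, 95% interval -0.82 to 0.05). It did not pass (adjusted p 1, unadjusted p 0.0801, edgeR), and the test takes the spread of the single DMSO library from the other groups. The FECH interaction was -0.21 with the replicate block within each guide, -0.21 without non-targeting rapamycin replicate 1, and from -0.54 to -0.21 over the fits without 1 library. None of the 8 enzymes passed the interaction test in edgeR (0 of 8, and 0 by DESeq2 and by limma-voom), where 0.00422% of all genes passed. At an unadjusted p under 0.05 there were 0 of 8, where 2.86% of all genes passed. The intervals are wide: for ALAS2 the interaction was -0.1 with a 95% interval of -0.67 to 0.47, and for PPOX 0.04 with -0.48 to 0.55.

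Under rapamycin the guides were compared directly, with 3 HBG1 sgRNA libraries against 2 non-targeting ones. No enzyme passed in edgeR (0 of 8, and 0 by DESeq2 and by limma-voom), where 0.0296% of all genes passed. At an unadjusted p under 0.05 there was 1 of 8, where 6.26% of all genes passed. The enzyme with the largest difference was UROD, at 469, 401 and 401 CPM with the HBG1 sgRNA and 336 and 357 CPM with the non-targeting one (log2 fold change 0.29, SE 0.11, 95% interval 0.06 to 0.52, unadjusted p 0.0149, adjusted p 0.773, edgeR). UROD and CPOX were the 2 of 8 enzymes whose HBG1 sgRNA libraries were all higher, where 11.2% of all genes were. Under DMSO UROD stood at 436, 350 and 338 CPM against 332 in the non-targeting library, an untested log2 fold change of 0.17. ALAS2 differed between guides under rapamycin by -0.07 (95% interval -0.42 to 0.28) and ALAS1 by 0 (95% interval -0.26 to 0.26). This comparison and the one above share the HBG1 sgRNA rapamycin libraries.

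The replicate 1 libraries stood apart for several enzymes. With the HBG1 sgRNA, replicate 1 was the highest of its group for 6 of 8 enzymes under DMSO and for 6 of 8 under rapamycin, where 38.4% and 37.1% of all genes tested were highest in replicate 1. ALAS2, UROS, UROD, PPOX and FECH were highest there under both treatments. The globin genes HBE1 and HBZ were also highest there. HBE1, an embryonic globin gene, was at 12300 CPM in HBG1 sgRNA DMSO replicate 1 against 7540 and 6590 in replicates 2 and 3. Under rapamycin HBE1 was at 14600 against 7870 and 7370. HBE1 also differed by guide, at 2030 CPM in the non-targeting DMSO library and 2980 and 2400 in non-targeting rapamycin replicates 1 and 2. HBZ with the HBG1 sgRNA was at 2780 CPM against 2000 and 1870 under DMSO, and at 3560 against 2450 and 2050 under rapamycin. The fibroblast marker COL1A2 was lowest in replicate 1, at 3.01 CPM under DMSO against 17.1 and 9.54, and at 3.66 under rapamycin against 24.8 and 15.6. The other fibroblast marker, COL1A1, was highest in replicate 1 under both treatments (2.2 CPM against 1.85 and 1.77, and 1.55 against 1.47 and 1.4). With the non-targeting sgRNA under rapamycin COL1A2 was at 19.2 CPM in replicate 1 and 15.9 in replicate 2. Their part in the enzymes' values was not tested. With the non-targeting sgRNA under rapamycin, replicate 1 exceeded replicate 2 for 5 of 8 enzymes (50.6% of all genes tested). Without HBG1 sgRNA rapamycin replicate 1 the log2 fold changes of ALAS2 and PPOX were 0.48 and 0.49 and still passed (adjusted p 0.0231 and 0.0184, edgeR).

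Genes around the pathway were counted from a list of 40, of which 38 were tested. With the HBG1 sgRNA, 2 were higher under rapamycin (SLC25A37 and GATA1) and 1 lower (LONP1), where 2.75% of all genes tested were higher and 4.05% lower, with a list median log2 fold change of -0.07 against 0.02 over all genes tested. With the replicate block 4 were higher and 4 lower of 37 tested, where 7.43% of all genes in that fit were higher and 9.63% lower. Between guides under rapamycin, and in the interaction, edgeR called 0 of the 38.

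Of 10 carriers of substrates and intermediates, 1 rose. SLC25A37, or mitoferrin, which brings iron into the mitochondrion of red cell precursors, had 401, 281 and 318 CPM in DMSO libraries and 639, 437 and 415 in rapamycin libraries, with no overlap. It rose by 0.58 on the log2 scale (SE 0.15, adjusted p 0.0325, edgeR), a call lost without HBG1 sgRNA DMSO replicate 2 or 3 or rapamycin replicate 1 (adjusted p 0.154, 0.122 and 0.0848) and with DESeq2 (0.108). With the non-targeting sgRNA it was at 325 CPM under DMSO and 604 and 452 CPM under rapamycin. SLC25A38, the mitochondrial glycine carrier, had 45.6 ± 1.73 CPM with DMSO and 39.2 ± 2.7 with rapamycin (SD, n = 3 per group), a log2 fold change of -0.22 (adjusted p 0.167, edgeR). ABCB10, a mitochondrial transporter needed for haem synthesis, had a log2 fold change of -0.2 (adjusted p 0.226) and TMEM14C, which carries protoporphyrinogen, one of 0.14 (adjusted p 0.355). With the replicate block ABCB10 passed as lower (-0.19, adjusted p 0.0439, edgeR), and in the additive model it did not (-0.1, adjusted p 0.493, edgeR). With the non-targeting sgRNA ABCB10 was at 105 CPM under DMSO and 127 and 104 under rapamycin, an untested log2 fold change of 0.13. Of these 4 carriers, the iron importer passed as higher, like ALAS2, and the glycine carrier did not pass.

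Among 8 tested genes that control the enzymes, GATA1 rose and LONP1 fell. GATA1, the erythroid transcription factor that drives ALAS2, was at 214, 190 and 191 CPM under DMSO and 273, 233 and 231 under rapamycin. The rise was 0.31 on the log2 scale (SE 0.08, adjusted p 0.0326, edgeR), and the call was lost without any of 4 HBG1 sgRNA libraries (DMSO replicates 2 and 3, rapamycin replicates 1 and 3) or without non-targeting rapamycin replicate 2, with adjusted p of 0.0501 to 0.146. LONP1, a mitochondrial protease that degrades ALAS1 protein, was at 266, 262 and 256 CPM under DMSO and 182, 175 and 169 under rapamycin, and fell by 0.58 on the log2 scale (SE 0.07, adjusted p 0.00016, edgeR). LONP1 was called lower under all 19 alternatives. TFRC, the transferrin receptor that takes up iron, is a K562 marker here and not one of these 8 genes. It was at 805 to 824 CPM in the HBG1 sgRNA DMSO libraries and 668 to 677 in the HBG1 sgRNA rapamycin libraries. With the non-targeting sgRNA TFRC was at 796 CPM under DMSO and at 775 and 684 under rapamycin replicates 1 and 2. No test of TFRC is given here. LONP1 also stood lower with the non-targeting sgRNA, at 163 and 168 CPM under rapamycin against 265 under DMSO. GATA1 with that sgRNA was at 201 CPM under DMSO and 233 and 216 under rapamycin, an untested log2 fold change of 0.16.

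Without the replicate block, no gene passed among 5 for succinyl-CoA supply (median log2 fold change -0.11) and 5 for iron-sulphur clusters (-0.08). None passed either among 10 tested genes for haem export, sensing, modification and breakdown (0.04). With the block, 1 of these 10 was higher and 1 lower, where 7.43% of all genes in that fit were higher and 9.63% lower. In the succinyl-CoA and iron-sulphur groups 0 passed with the block. HMOX1, the inducible haem oxygenase, had at most 3 counts in any library and was not tested.

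**Figure D4:**
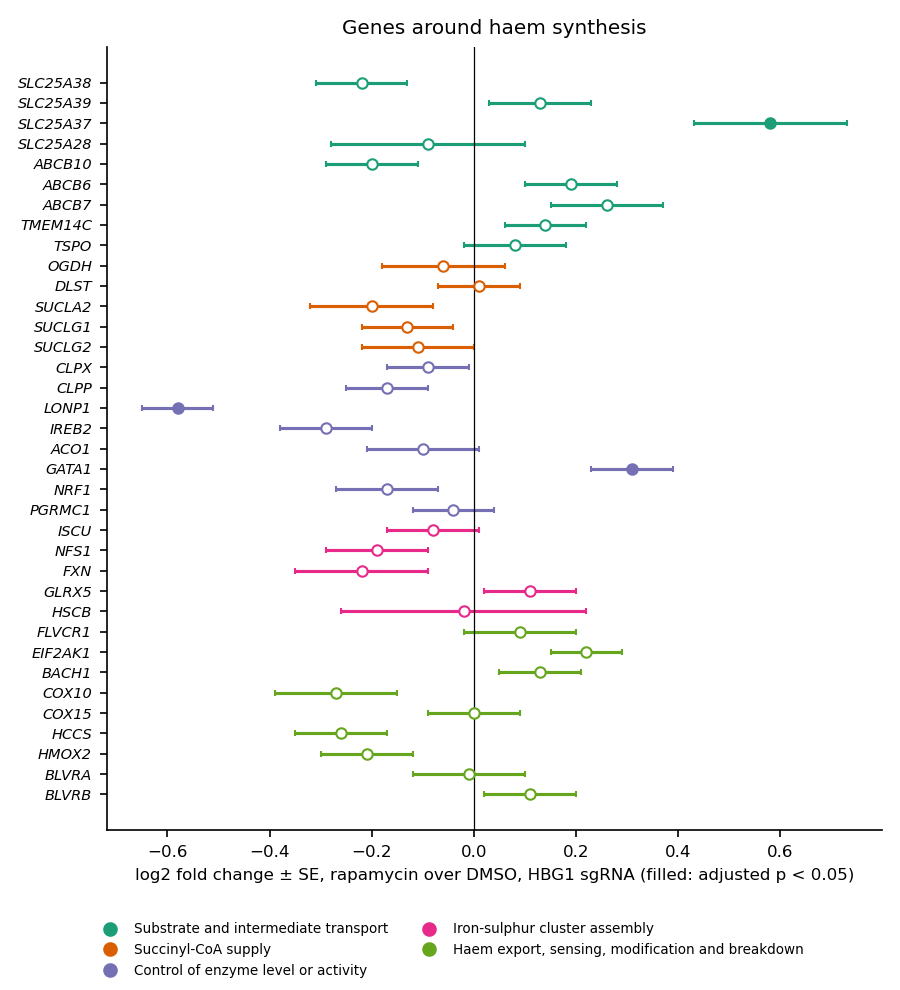
Log2 fold change ± SE (edgeR) of rapamycin over DMSO with the HBG1 sgRNA for genes around haem synthesis, coloured by role, filled where the adjusted p was under 0.05. SLC25A37 and GATA1 lie to the right and LONP1 to the left; ABCG2 and FLVCR2, tested at very low counts, are left out of the plot.

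The genes whose pattern over the 9 libraries was most like that of ALAS2 were SLC25A37, SLC4A1 and RAB3IP. Likeness was the root mean square difference of centred log2(CPM + 0.5) values, among 11495 genes whose mean log2 CPM reached 3. SLC25A37 differed from ALAS2 by 0.0616, SLC4A1, the red cell anion exchanger, by 0.109 and RAB3IP by 0.111, where the median gene differed by 0.451 and ALAS2 itself varied by 0.412 about its mean. SLC4A1 was higher under rapamycin with the HBG1 sgRNA (0.54, adjusted p 0.0239, edgeR), a call lost without any of 4 HBG1 sgRNA libraries (adjusted p 0.0553 to 0.128), and RAB3IP was not called (0.6, adjusted p 0.0568). RAB3IP was called higher under 8 of 19 alternatives, among them the replicate block (adjusted p 0.00154), DESeq2 (0.0143) and the additive model (0.00735). For ALAS1 the nearest genes were TONSL, PC and AC011511.4, at 0.0524, 0.0613 and 0.0619, where the median gene differed by 0.203.

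**Figure D5:**
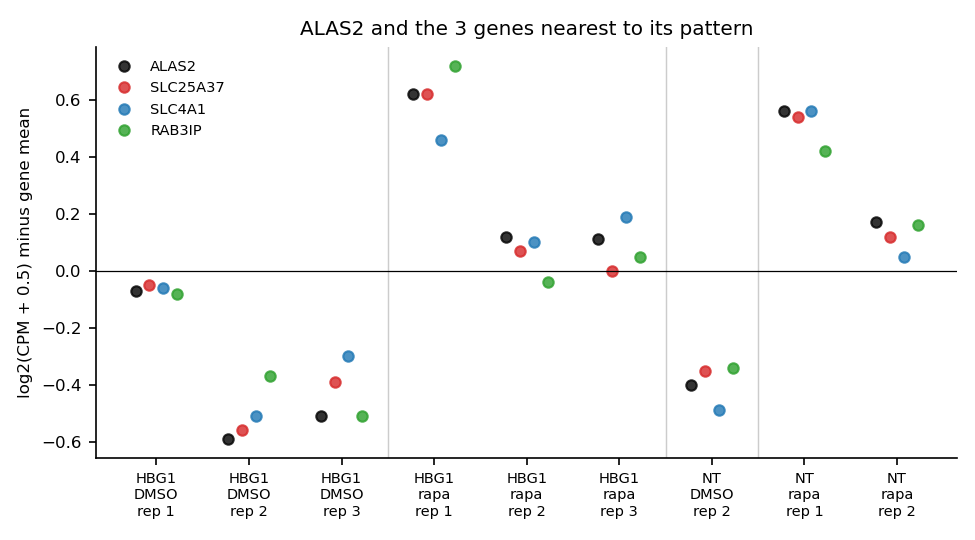
Log2(CPM + 0.5), centred on each gene's mean, in the 9 libraries for ALAS2 and the 3 genes nearest to its pattern; vertical lines part the groups. ALAS2 runs from -0.59 in HBG1 sgRNA DMSO replicate 2 to 0.62 in HBG1 sgRNA rapamycin replicate 1, and the other genes lie close to it in each library.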

How the data were processed

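Poly-A RNA of 9 K562-FIRE libraries was sequenced from NEBNext Ultra libraries, per the labels' protocols. The authors deposited whole-number read counts per Ensembl gene, not normalized. The submitters' processing notes name STAR 2.7.3a, featureCounts (Subread 2.0.0), R 4.1.2, limma 3.34.9, edgeR 3.24.0 and GRCh38, with no role or order. Annotation release, strand setting and treatment of multi-mapping reads are not given in the sources used here. Symbols and positions came from GENCODE 29, which matched 58039 of 58347 IDs.

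Groups and replicate numbers came from sample titles. Genes were filtered with filterByExpr (minimum count 10), scaled by TMM and tested over all genes with edgeR 4.0.16 (glmQLFit, glmQLFTest) in R 4.3.3, with 1 mean per group over 9 libraries and Benjamini-Hochberg adjustment. SEs are the log2 fold change over the square root of F, and 95% intervals use the fit's t quantiles. DESeq2 1.42.0, limma 3.58.1 and fits on other scalings, filters and libraries were alternatives. The fit was tested on simulated data.

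Replicate numbers were taken to pair the HBG1 sgRNA libraries. Deviations of same-numbered libraries from group means correlated at 0.553, 0.279 and 0.231 over 11495 genes, above the limit of 0.1 used for pairing. Replicates 2 and 3 also correlated with each other across treatments (0.259 and 0.195), above the same limit, so this check does not tell their pairing apart. Only replicate 1 stood apart, with negative correlations to both (-0.324 to -0.408). Across guides, same-numbered rapamycin libraries gave -0.073, below the limit. Replicates 1 and 2 must give the same value there, because 2 libraries centred on their mean mirror each other. Blocks by replicate number between guides were alternatives only. All 8 enzymes are named. Of the partner list, genes called with the HBG1 sgRNA are named, with SLC25A38, SLC25A37, ABCB10, TMEM14C, HMOX1 and GATA1. For ALAS2 and ALAS1 the 3 nearest patterns are named. Some marker genes of the lists are not reported here. Members and lists were chosen with earlier results of these data known.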

Additional observations from a re-analysis of the deposited data

How the results depend on the processing

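Of 808 values of single genes over the alternatives tried, 23 lost their call, 14 gained one and 2 untested values moved. The sign was opposite to that reported in 28 of the 808, among them 4 for rapamycin in HBG1 sgRNA cells, 6 between guides under rapamycin and 14 for the interaction. Signs were taken from rounded values, so a reported value of 0 could not count. That applies to ALAS1 between guides under rapamycin, which ran from -0.15 to 0.17 over the alternatives. None of the 28 was called, and each belonged to a log2 value no larger than 0.13 in size. Of the 8 enzymes, 3 were called for rapamycin in HBG1 sgRNA cells, a number that became 5 with the replicate block and 5 in the additive model. It ran from 0 (without HBG1 sgRNA DMSO replicate 2) to 4 over the fits that left out 1 library, and was 1 without HBG1 sgRNA DMSO replicate 3. The count over all genes in this comparison was 1609. It was 3443 with the replicate block, 3263 in the additive model and 664 to 1731 with 1 library left out. Between guides under rapamycin the count over all genes was 7, and became 91 without a filter, 13 with DESeq2, 11 with the replicate block and 3 to 8 with 1 library left out. The interaction count was 1. It was 0 on total counts, 0 with a minimum count of 50, 0 with DESeq2, 8 without a filter, 3 with limma-voom, 5 with the replicate block within each guide and 0 to 4 with 1 library left out. The cause of these shifts was not tested. No enzyme was called between guides or in the interaction under any alternative. Besides adding ALAD and UROD to the calls, the replicate block changed no enzyme's call. Counting error alone, as a log2 SD, came to 0.0706 for ALAD in the non-targeting rapamycin libraries and 0.0501 for ALAS1 in the HBG1 sgRNA DMSO libraries, about the spread seen there (0.0622 and 0.0513).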
